A study of Homo sapiens with 6 samples.

Results

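The miR-200 family and miR-205 were examined in K562 erythroleukemia cells after over-expression of RUNX1, a transcription factor of the megakaryocytic and erythroid lineages. The members were taken by name from the count tables as 10 mature arms. They are 5 arms from the cluster of miR-200b, miR-200a and miR-429 (hsa-miR-200b-3p, hsa-miR-200b-5p, hsa-miR-200a-3p, hsa-miR-200a-5p and hsa-miR-429), 3 arms from the cluster of miR-200c and miR-141 (hsa-miR-200c-3p, hsa-miR-141-3p and hsa-miR-141-5p) and both arms of miR-205 (hsa-miR-205-5p and hsa-miR-205-3p), out of 2596 microRNAs and 28846 small RNAs that each table lists. All 10 members had at least 1 count in the series, 5 passed the filter on low counts, and 3 had under 20 counts in all 6 libraries together.

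K562 is an established human leukemia line that can take on erythroid or megakaryocytic features. Control cells carried the empty lentiviral vector SIEW, which expresses GFP, and the RUNX1 cells carried the same vector with RUNX1 added. Each condition had 3 independent transductions, sampled after 10 days in culture. Small RNA counts do not measure RUNX1 mRNA, so the level of RUNX1 itself was not checked here, and the control is 1 empty vector in 1 cell line.

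The miR-200 family is known from epithelial tissues, where its members repress the transcription factors ZEB1 and ZEB2 and with them keep up E-cadherin, the adhesion protein of epithelial cells. The family falls into 2 groups by seed, the stretch of bases 2 to 8 with which a microRNA pairs to its targets. miR-205 has another seed, is abundant in squamous epithelium and keratinocytes, and also targets ZEB1 and ZEB2. A precursor hairpin gives an arm from its 5′ side (5p) and another from its 3′ side (3p), and usually 1 arm outweighs the other.

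The mature sequences show which members could share targets, and which are so alike that their reads could be confused. RefSeq (GRCh38.p14) held 9 of the 10 members, and miR-141-5p was matched to none. The sequences are written 5′ to 3′ with the seed in capitals. The first seed group holds miR-200b-3p, miR-200c-3p and miR-429.
hsa-miR-200b-3p: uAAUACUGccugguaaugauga
hsa-miR-200c-3p: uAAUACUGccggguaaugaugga
hsa-miR-429: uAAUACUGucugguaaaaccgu

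These were the 3 mature microRNAs in the RefSeq table with the seed AAUACUG. Counted from 1 at the 5′ end, miR-200b-3p and miR-200c-3p differed by U11G and A22G over 22 compared bases, while miR-200b-3p and miR-429 differed at 6 positions. The second seed group holds miR-200a-3p and miR-141-3p, the 2 mature microRNAs with the seed AACACUG.
hsa-miR-200a-3p: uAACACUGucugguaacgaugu
hsa-miR-141-3p: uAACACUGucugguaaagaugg

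They differed by C17A and U22G. From miR-200c-3p to miR-141-3p, the neighbours on chromosome 12, there were 4 differences, of which U4C lies in the seed. How reads that match several microRNAs were assigned is not given in the sources used here, so the split of counts between miR-200b-3p and miR-200c-3p, and between miR-200a-3p and miR-141-3p, is uncertain. The remaining arms with a sequence are the opposite strands of the miR-200 hairpins on chromosome 1, which share the seed AUCUUAC, and the arms of miR-205, whose seeds no other mature microRNA of the table carries.
hsa-miR-200b-5p: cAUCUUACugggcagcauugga
hsa-miR-200a-5p: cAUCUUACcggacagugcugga
hsa-miR-205-5p: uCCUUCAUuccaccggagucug
hsa-miR-205-3p: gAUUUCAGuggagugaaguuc

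The hairpins of MIR205, MIR200B and MIR200C are also shown, since the results set the arms of the first against each other and compare the near-identical 3p arms of the other 2. Here capitals mark the mature arms, the 5p arm first.
MIR205: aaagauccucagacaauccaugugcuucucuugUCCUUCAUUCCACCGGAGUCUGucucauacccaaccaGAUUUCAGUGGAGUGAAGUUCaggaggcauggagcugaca
MIR200B: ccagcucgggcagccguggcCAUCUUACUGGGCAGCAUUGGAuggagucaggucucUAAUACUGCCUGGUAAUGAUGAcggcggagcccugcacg
MIR200C: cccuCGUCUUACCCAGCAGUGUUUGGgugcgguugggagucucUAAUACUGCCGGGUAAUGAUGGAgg

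The 6 hairpins lie at 3 loci, all on the + strand. Positions are from GENCODE 29 on GRCh38, whereas the submitters' processing notes name hg19, and the counts themselves carry no coordinates. MIR200B (chr1:1167104-1167198), MIR200A (chr1:1167863-1167952) and MIR429 (chr1:1169005-1169087) are 664 and 1052 bases apart and lie in no annotated host gene. MIR200C (chr12:6963699-6963766) and MIR141 (chr12:6964097-6964191) are 330 bases apart, in intronic sequence of the long non-coding RNA MIR200CHG (chr12:6963246-6964447). MIR205 (chr1:209432133-209432242) lies within its own host, MIR205HG (chr1:209428820-209432838), where it overlaps an exon that starts at base 209432204. The miR-205-5p arm (209432166 to 209432187) is upstream of that exon start, and the miR-205-3p arm (209432203 to 209432223) begins 1 base before it. TGTGGT and TGCGGT, the core of the RUNX binding motif in its 2 common forms, were searched on both strands in 35116 promoter windows of 300 bases. They were found in 13.1% and 7.29% of all windows and in neither the MIR205HG nor the MIR200CHG window. Each host had 1 window, MIR205 starts 3313 bases after the MIR205HG start, and no window was read for the cluster of miR-200b. Most windows lack these motifs, and binding of RUNX1 at the 3 loci was not tested.

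Total counts ran from 1618248 to 6193319 in control and from 7918551 to 15245007 in RUNX1 libraries, of which microRNAs made up 81.4% to 82.1% and 89.5% to 91.9%. A count of 0 allows up to 3 counts, which is between 0.197 and 1.85 CPM of a library's total, and such floors cover counting error only. CPM is the counts-per-million scale, and levels are given after TMM scaling as well, in which the factors ran from 1.23 to 1.31 in control and from 0.735 to 0.866 in RUNX1 libraries. Because that scaling differs with the condition, the tested members, the sums and most other microRNAs named below were also computed with other scalings. The text says where a direction turned or a call was lost.

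miR-205-5p, miR-141-3p and miR-200c-3p were higher in RUNX1 than in control libraries, by log2 fold changes of 6.20, 1.17 and 0.97, whereas miR-200b-3p and miR-141-5p did not pass the test. Calls came from edgeR's quasi-likelihood fit over all 947 small RNAs that passed the filter, and needed both P under 0.05 and a shift of 0.5 or more on the log2 scale in either direction. By this rule 3 of the 10 members were called higher and 0 lower. Of the 598 microRNAs tested, 33.4% were called higher and 22.6% lower (56% in all), and of all 947 small RNAs 28% and 29.6% (57.6% in all). With the adjusted P-value the same 3 members were called, against 52.7% of microRNAs and 54.6% of small RNAs. These percentages are of tested RNAs, whereas 5 of the 10 members were not tested, so the count to set beside 33.4% is 3 of the 5 tested members, which is too few arms to say that the family differed from other microRNAs. The median log2 fold change was 0.97 over the 5 tested members, 0.11 over the tested microRNAs and -0.06 over the tested small RNAs. miR-205-5p reached the filter through its RUNX1 libraries alone, so once tested it could hardly be called other than higher. Both the count of 3 and the median of 0.97 include it. The libraries were made from whole cultures, so a higher level in every cell and a high level in a few cells cannot be told apart.

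**Figure D1:**
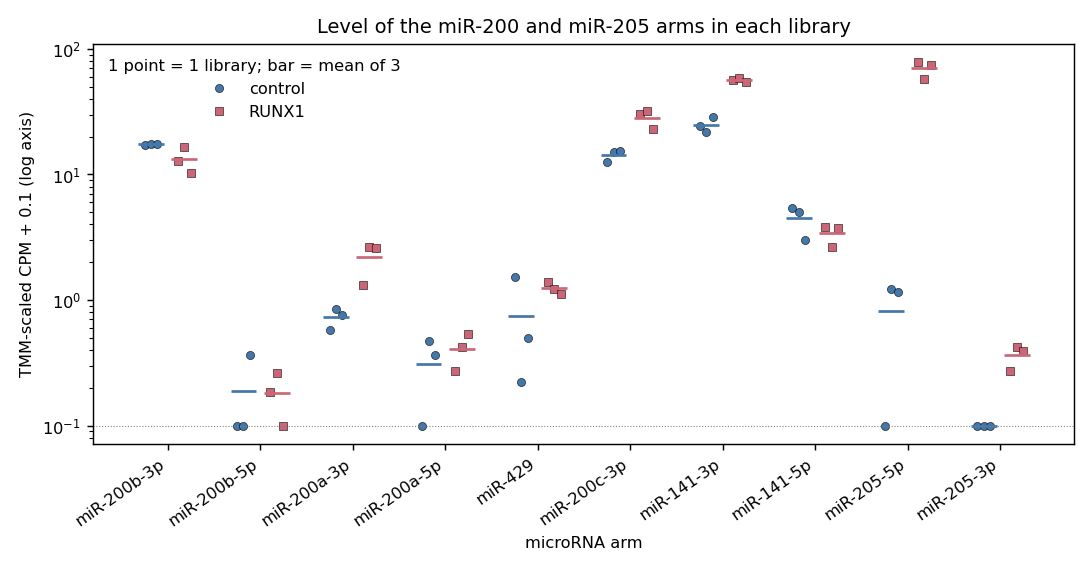
Level of each of the 10 arms (TMM-scaled CPM plus 0.1, log axis), with 1 point for each library, circles for control, squares for RUNX1, and bars at the mean of 3. miR-205-5p moves from 0 to 1.12 CPM in control to 57.9 to 78.4 CPM in RUNX1 libraries, miR-141-3p and miR-200c-3p separate without overlap, and the 5 arms that failed the filter stay at or under 2.56 CPM.

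The plot of levels by arm shows that the members spanned a wide range in both conditions, from no count to 78.4 CPM. Arms of 21 to 23 bases need no correction for length on this scale, and the length of miR-141-5p was not available. Whether arms of different sequence entered the libraries equally well was not tested, so the order below is one of counts. In control libraries the order was miR-141-3p at 24.9 CPM, miR-200b-3p at 17.3 and miR-200c-3p at 14.2, and the ranges of these 3 over the libraries did not overlap. miR-141-5p followed at 4.37 CPM. miR-205-5p (0.723 CPM), miR-429 (0.651 CPM) and miR-200a-3p (0.627 CPM) overlapped each other, and the remaining 3 arms were at or under 0.212 CPM. Among 2596 microRNAs ordered by mean CPM, the most abundant member in control libraries, miR-141-3p, ranked 234.

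In RUNX1 libraries the order changed at the top. miR-205-5p led at 70.5 CPM, overlapping miR-141-3p at 56.2 CPM, and then came miR-200c-3p at 28.3 and miR-200b-3p at 13.1 CPM, whose ranges did not overlap those of their neighbours. Below them miR-141-5p (3.31 CPM), miR-200a-3p (2.09 CPM) and miR-429 (1.15 CPM) followed, where miR-141-5p and miR-200a-3p met at 2.56 CPM and the range of miR-200a-3p, from 1.21 CPM, overlapped that of miR-429, up to 1.30 CPM. By rank miR-205-5p went from 681 to 183, miR-200c-3p from 277 to 240, and miR-200b-3p from 262 to 293.

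miR-205-5p, the guide strand of miR-205, was counted 0, 9 and 8 times in control replicates 1, 2 and 3 and 904, 362 and 514 times in RUNX1 replicates 1, 2 and 3. After scaling these were 0, 1.12 and 1.05 CPM against 78.4, 57.9 and 75.0 CPM. Each RUNX1 library lay far above each control library. Control replicate 1 was the shallowest library, in which a count of 0 allows 1.85 CPM before scaling, so its 0 does not set it apart from the other controls. The means were 0.723 ± 0.627 CPM and 70.5 ± 11.0 CPM (SD, n = 3), and the log2 fold change was 6.20 (SE 0.33, edgeR adjusted P = 1.21e-06). With 17 control counts in all, the size of the fold is less certain than its direction. Among the log2 fold changes of the 598 tested microRNAs, that of miR-205-5p ranked 4.

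The opposite arm, miR-205-3p, had 0 counts in every control library and 2 counts in every RUNX1 library. Both groups were at or under the floor of 3 counts, and no fold is given. In RUNX1 libraries the hairpin was thus represented by 1780 counts of its 5p arm and 6 of its 3p arm.

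The microRNAs whose pattern over the 6 libraries was most like that of miR-205-5p belonged to other families. Likeness was measured as the root mean square difference of log2 CPM after each microRNA was centred on its own mean, over 597 other tested microRNAs. The nearest were miR-143-3p (0.835 log2 units), miR-181a-3p (0.883) and miR-363-3p (0.965), with log2 fold changes of 6.74, 6.50 and 5.50. Such large fold changes follow from choosing by likeness in these same libraries. miR-143-3p, known from smooth muscle and fibroblasts, went from 18.7 to 1986 CPM.

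Markers of other tissues were read beside this result. Of 5 arms listed for stroma and smooth muscle, 2 were tested and both were called higher, and the sum of the list went from between 70.9 and 75.3 CPM in control to between 1952 and 2158 CPM in RUNX1 libraries. Most of the sum in RUNX1 libraries was miR-143-3p alone, at a mean of 1986 CPM. The other tested arm, miR-145-5p, was at 54.5 ± 3.20 CPM in control and 95.9 ± 13.1 CPM in RUNX1 libraries (SD, n = 3), and its call was lost with library size only (log2 fold change 0.11). Of the untested arms, miR-199a-5p had 0 counts in all 6 libraries, miR-199a-3p had 0 in every control and 2, 1 and 0 with RUNX1, and miR-214-3p was counted 0, 1 and 0 times in the controls and 21, 9 and 30 times with RUNX1. Outside the list, the opposite arm miR-145-3p was called lower with TMM (log2 fold change -0.81), from a mean of 67.9 CPM in control to 38.9 CPM in RUNX1 libraries. The related miR-199b-5p was not called, at 347 CPM in control and 379 CPM in RUNX1 libraries. Both arms outside the list were chosen after their values were seen, and in control libraries both were above miR-143-3p, at 18.7 CPM. The muscle and heart list of 7 arms had 2 tested, both higher, with sums of 3.16 to 5.74 CPM and 14.6 to 16.2 CPM. There miR-1 had 0, 1 and 0 counts against 70, 29 and 42, while miR-206 was at 0 throughout. Like miR-205-5p, miR-1 reached the filter through its RUNX1 libraries alone, so once tested it could hardly be called other than higher. The 2 liver arms were not tested and summed to 0.124 to 1.05 CPM against 0.320 to 1.13 CPM. The single tested arm of 5 for brain was higher, with sums of 62.1 to 72.7 CPM against 95.0 to 155 CPM, as was that of 3 for pancreas, at 67.0 to 76.3 CPM against 170 to 207 CPM. With library size only the calls of miR-143-3p, miR-1 and the pancreas arm miR-375 remained, those of miR-499a-5p and the brain arm miR-128-3p were lost, and the brain sums overlapped. Of all tested microRNAs 33.4% were called higher with TMM, and lists with at most 2 tested arms are too small to be set apart from that share. The part of RNA from other cells in the rise of miR-205-5p was not tested.

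For squamous epithelium, where miR-205 and miR-203 are both abundant, the companion marker stayed at the limit of detection and was not tested. miR-203a was counted 0, 0 and 1 times in the controls and 1, 0 and 1 times with RUNX1. All 7 arms of the hematopoietic and erythroid list, the lineage of the labelled cell line, passed the filter and summed to between 18257 and 20358 CPM in control and between 40826 and 56905 CPM in RUNX1 libraries. Of these arms 4 were called higher and 3 lower, against 33.4% and 22.6% of all tested microRNAs. The sum of the list was higher in RUNX1 libraries under each scaling, but miR-144-3p and miR-223-3p lost their calls with library size only. Most of the sum was miR-142-5p, at a mean of 11714 CPM in control and 37694 CPM in RUNX1 libraries. The 3 arms called lower were miR-451a, miR-144-5p and miR-486-5p, with log2 fold changes of -0.84, -0.58 and -0.80, so the sum does not stand for the erythroid arms.

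**Figure D2:**
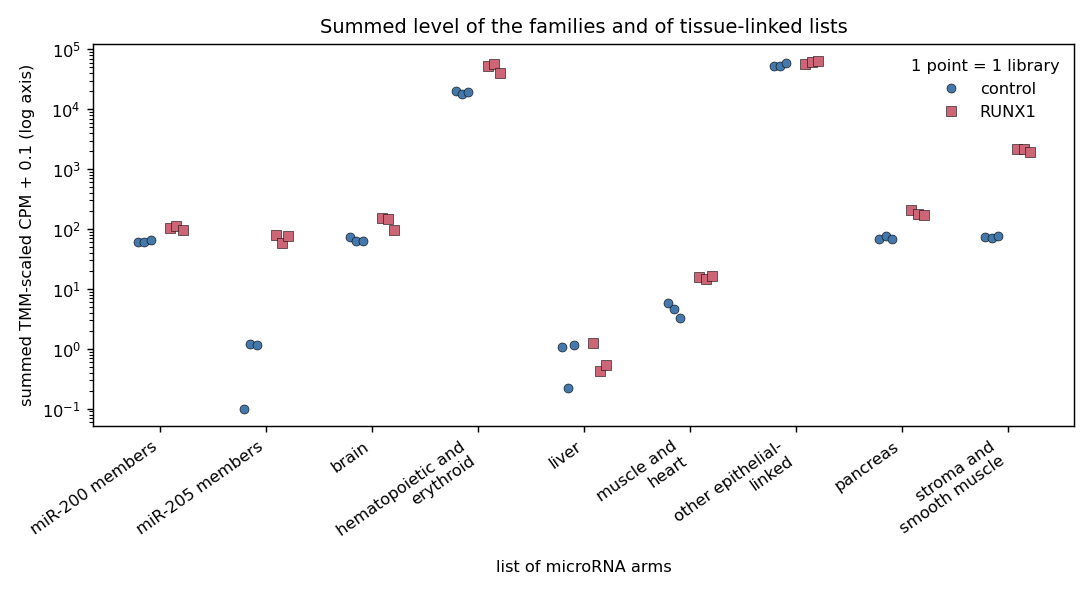
Summed level of the miR-200 arms, the miR-205 arms and each list of tissue-linked microRNAs (TMM-scaled CPM plus 0.1, log axis), with 1 point for each library, circles for control and squares for RUNX1. The stroma list, at 70.9 to 75.3 CPM in control and 1952 to 2158 CPM in RUNX1 libraries, and the miR-205 arms separate most, whereas the separation of the miR-200 arms in this scaling is turned around when they are taken as a share of microRNA counts. The order of the groups in the epithelial list turns as well, and the brain list overlaps, with library size only.

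The arms of miR-200c and miR-141, from the cluster on chromosome 12, came next. miR-141-3p, the guide strand of miR-141, was counted 51, 174 and 218 times in the control libraries and 649, 365 and 370 times with RUNX1. These were 24.4, 21.6 and 28.7 CPM against 56.3, 58.4 and 54.0 CPM, so that the lowest RUNX1 library stood well above the highest control. The log2 fold change was 1.17 (SE 0.15, edgeR adjusted P = 0.000175), rank 99 of 598 microRNAs.

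miR-200c-3p, its partner in the same transcript, was read 26, 121 and 116 times without RUNX1 and 351, 198 and 157 times with it. The levels of 12.4, 15.02 and 15.3 CPM against 30.4, 31.7 and 22.9 CPM did not overlap, although RUNX1 replicate 3 lay below the other RUNX1 libraries. Its log2 fold change was 0.97 (SE 0.18, edgeR adjusted P = 0.00164), at rank 135. The ratio of both guides needs no scaling. The log2 ratio of miR-141-3p to miR-200c-3p was 0.80 ± 0.24 in control and 1.00 ± 0.20 in RUNX1 libraries (SD, n = 3), and the groups overlapped (exact permutation test, two-sided, P = 0.6). No change of the ratio within this cluster was detectable with 3 libraries a group.

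miR-141-5p, the other strand of the miR-141 hairpin, was not called. Control libraries held 11, 40 and 22 counts of it and RUNX1 libraries 43, 16 and 25, and the levels of 5.26, 4.96 and 2.90 CPM overlapped those of 3.73, 2.56 and 3.65 CPM. The log2 fold change was -0.32 (SE 0.30, edgeR adjusted P = 0.389). Within each library, the counts of miR-141-3p for each count of miR-141-5p came to a geometric mean of 5.72 in control and 16.9 in RUNX1 libraries. On the log2 scale these ratios were 2.16, 2.11 and 3.28 against 3.90, 4.47 and 3.86, a difference of 1.56 without overlap (exact permutation test, two-sided, P = 0.1, the smallest that 3 against 3 can give). Adjusted over the 7 ratios and shares compared, every P of 0.1 became 0.117, so none of them passed 0.05. The remaining arm of the cluster, miR-200c-5p, which is no member, was counted 0, 1 and 2 times in the controls and 3, 0 and 0 times with RUNX1.

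The most abundant arm of the chromosome 1 cluster was not called in either direction. Control libraries held 36, 139 and 133 counts of miR-200b-3p and RUNX1 libraries 147, 102 and 70. The control levels of 17.2, 17.2 and 17.5 CPM were tightly grouped, and the RUNX1 levels of 12.8, 16.3 and 10.2 CPM were all lower and more spread. The log2 fold change of -0.41 (SE 0.20, edgeR adjusted P = 0.109) was not called. Without RUNX1 replicate 2 it was -0.53 and was called by the unadjusted P-value, and without RUNX1 replicate 3 it was -0.19. Counting it, the groups did not overlap in 4 of the 5 tested members, 3 higher and 1 lower, against 61.7% of the tested microRNAs and 64.8% of the tested small RNAs. The 3 higher include miR-205-5p, which passed the filter through its RUNX1 libraries alone and so could hardly have overlapped.

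miR-200b-3p and miR-200c-3p share a seed and differ by U11G within the first 21 bases, so their ratio was compared, a choice made after their values were seen. The log2 ratio of miR-200b-3p to miR-200c-3p was 0.46, 0.20 and 0.20 in the controls and -1.25, -0.95 and -1.16 with RUNX1. miR-200b-3p thus outnumbered miR-200c-3p in each control library and was outnumbered by it in each RUNX1 library, a difference of -1.41 (exact permutation test, two-sided, P = 0.1).

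Among the rarer arms of the cluster, miR-200a-3p, which carries the seed of miR-141-3p, was counted 1, 6 and 5 times in the controls and 14, 16 and 17 times with RUNX1. It failed the filter, with levels of 0.478, 0.745 and 0.658 CPM against 1.21, 2.56 and 2.48 CPM that did not overlap. With no filter its log2 fold change was 1.60 (SE 0.53, edgeR adjusted P = 0.0156). The log2 ratio of miR-200b-3p to miR-200a-3p, whose hairpins are 664 bases apart, was 4.54 ± 0.10 in control and 2.66 ± 0.67 in RUNX1 libraries (SD, n = 3; exact permutation test, two-sided, P = 0.1). With 0.5 added to each count, that is a geometric mean of 23.3 counts of miR-200b-3p for each of miR-200a-3p in control and 6.34 in RUNX1 libraries. The difference in log2 ratio was -1.88, and -1.71 with 1 added instead, so its size depends on the amount added to such low counts.

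miR-429, the third arm with the miR-200b seed, was counted 3, 1 and 3 times in the controls against 15, 7 and 7 times with RUNX1. Control replicate 1, at 1.43 CPM, lay above every RUNX1 library (1.30, 1.12 and 1.02 CPM), while the other controls were at 0.124 and 0.395 CPM. With no filter the adjusted P in edgeR was 0.108. The 5p arms of the cluster were at the limit of detection. miR-200b-5p had 0, 0 and 2 counts against 1, 1 and 0, and miR-200a-5p had 0, 3 and 2 against 2, 2 and 3.

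**Figure D3:**
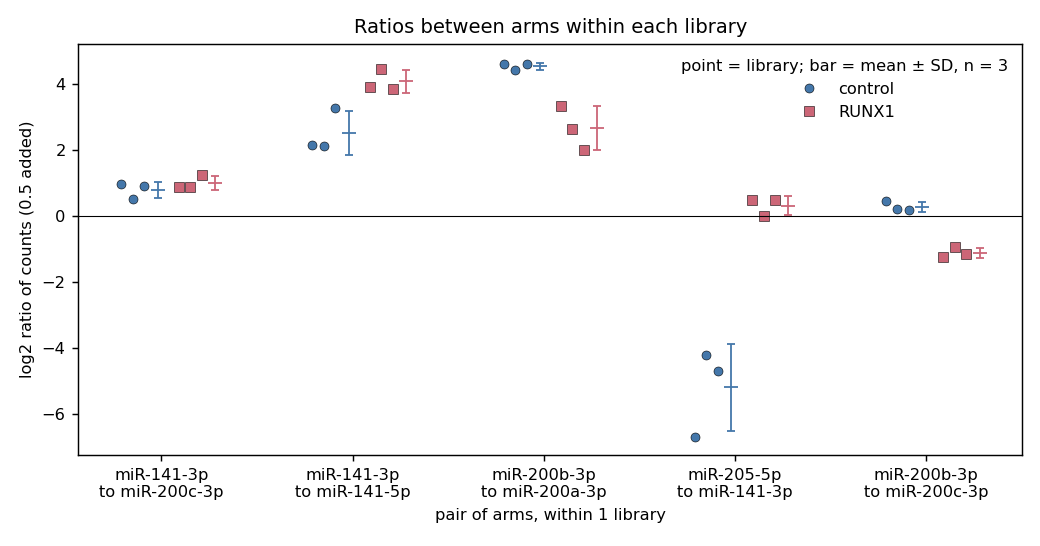
log2 ratio of the counts of 2 arms within each library (0.5 added to each count), for 5 pairs, with circles for control, squares for RUNX1, and the mean ± SD of 3 libraries beside them. The ratio of miR-141-3p to miR-200c-3p overlaps between the groups, and the other 4 pairs do not, with miR-205-5p to miR-141-3p moving from -5.19 ± 1.32 to 0.31 ± 0.28.

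The plot of ratios within libraries shows pairs that do not rest on any scaling between libraries. miR-205-5p went from a small fraction of the count of miR-141-3p to about the same count, with log2 ratios of -6.69, -4.20 and -4.68 in control and 0.48, -0.01 and 0.47 in RUNX1 libraries. The difference was 5.50 (exact permutation test, two-sided, P = 0.1), and its size depends on the 0.5 added where control replicate 1 had 0 counts.

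Summed by seed, the arms that could act on the same targets moved unevenly on the CPM scale. miR-200a-3p and miR-141-3p together were at 25.5 ± 3.56 CPM in control and 58.3 ± 2.34 CPM in RUNX1 libraries (SD, n = 3), of which miR-141-3p was the larger part. The other seed group, miR-200b-3p, miR-200c-3p and miR-429, was at 32.2 ± 1.06 and 42.6 ± 7.66 CPM, with the lowest RUNX1 library (34.2 CPM) just above the highest control (33.2 CPM), but its direction turned with library size only, to 41.1 ± 1.18 in control and 33.1 ± 3.30 CPM in RUNX1 libraries, and with microRNA counts as the denominator, to 50.2 ± 1.68 and 36.4 ± 3.27 CPM, both without overlap. The miR-200a-3p and miR-141-3p sum was higher in RUNX1 libraries under both, at 32.5 ± 3.39 against 45.7 ± 2.81 CPM and at 39.7 ± 3.99 against 50.3 ± 3.80 CPM. Summed by locus, the 3 arms of the chromosome 12 cluster went from 43.5 ± 2.93 to 87.9 ± 6.43 CPM, and the 5 arms of the chromosome 1 cluster from 18.9 ± 0.359 to 16.7 ± 3.32 CPM, where the groups overlapped. The chromosome 12 sum was also higher with library size only, at 55.4 ± 1.77 against 68.7 ± 0.869 CPM, and with microRNA counts as the denominator. For the chromosome 1 cluster the groups separated there, with RUNX1 lower, at 24.1 ± 0.658 against 13.0 ± 1.78 CPM with library size only.

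**Figure D4:**
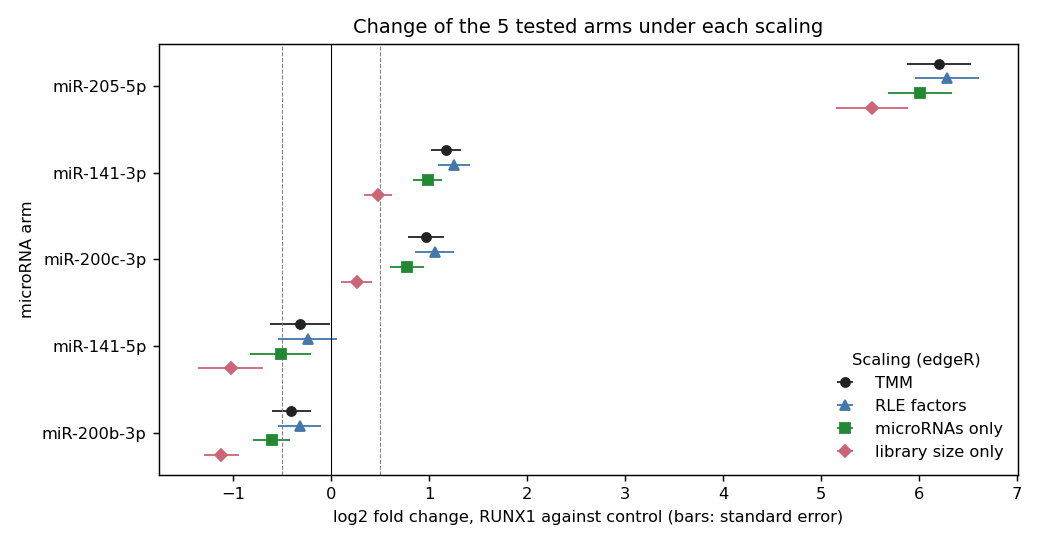
log2 fold change of RUNX1 against control with its standard error, for the 5 tested arms under 4 scalings in edgeR, with dashed lines at the threshold of 0.5 in either direction. All 5 keep their sign, but miR-141-3p and miR-200c-3p fall under 0.5 with library size only. miR-141-5p and miR-200b-3p fall past -0.5 with library size only and also on microRNAs only, at -0.52 and -0.61 in the latter.

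The plot of fold changes by scaling shows the same order of the 5 arms throughout and a shift of the whole set. With library size only, the median of all small RNAs tested in both fits moved by -0.70, and the log2 fold changes were 0.47 for miR-141-3p, 0.26 for miR-200c-3p, -1.12 for miR-200b-3p and -1.03 for miR-141-5p. The former pair was then not called and the latter was called lower. Fitted on microRNAs only, with a median shift of -0.19, miR-200b-3p was called lower at -0.61 (edgeR adjusted P = 0.0196). Relative to the median of all tested small RNAs, miR-141-3p was at 1.24 both with TMM and with library size only, miR-200c-3p at 1.03 and 1.02, miR-200b-3p at -0.34 and -0.36, and miR-141-5p at -0.26 in both. Another scaling of the same tested set shifts all arms by nearly the same amount, so this likeness follows from the arithmetic. On microRNAs only, relative to the median of the tested microRNAs, these arms were at 1.07, 0.85, -0.52 and -0.43. The rise of miR-205-5p stood between 5.52 and 6.28 in these 4 scalings. Over all tested microRNAs the calls split into 200 higher and 135 lower with TMM, 91 and 292 with library size only, and 162 and 177 on microRNAs only.

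The direction of the miR-200 arms as a sum hung on the denominator. As CPM after TMM the 8 arms went from 62.4 ± 3.13 to 104.6 ± 9.27 (SD, n = 3). Taken as CPM of the microRNA counts alone, without TMM, they were however at 97.2 ± 1.19 in control and 90.0 ± 2.36 in RUNX1 libraries, a difference of -7.25 for RUNX1 minus control (exact permutation test, two-sided, P = 0.1). miR-10a-5p, the microRNA with the most counts, took up 7.08% to 8.56% of microRNA counts in control and 27.4% to 32.1% in RUNX1 libraries, and with it left out the family was at 105 ± 2.14 and 129 ± 4.41 CPM of the remaining microRNA counts. The miR-205 arms were higher by each measure, at 1.12 ± 0.980 and 61.5 ± 13.3 CPM of the microRNA counts.

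The other microRNAs linked to epithelia were called in both directions. Of 19 arms listed, 13 were tested, 2 were called higher, 3 lower and 8 neither, with a median log2 fold change of 0.15. Of all tested microRNAs 33.4% were called higher and 22.6% lower, 56% in all. The sum of the list, most of it miR-182-5p and other abundant arms, was 52095 to 58220 CPM in control and 58189 to 63231 CPM in RUNX1 libraries, which overlapped. With library size only this sum was lower with RUNX1, at 43999.9 to 54710 against 68225 to 71386 CPM. miR-375, known from pancreatic islets and secretory epithelia, was higher with 67.0 to 75.8 CPM against 170 to 207 CPM, a log2 fold change of 1.40 (SE 0.14, edgeR adjusted P = 3.54e-05). It is also the tested arm of the pancreas list, so the call is the same in both lists. Both arms of miR-96 were lower, by -1.38 for miR-96-3p and -0.97 for miR-96-5p on the log2 scale. miR-215-5p, known from intestine and kidney, was also lower, at -0.83. The remaining call was miR-194-3p, at 0.75. With library size only miR-375 was still called higher (0.69) and miR-96-3p, miR-96-5p and miR-215-5p lower, whereas miR-194-3p was called neither there (0.06) nor on microRNAs only (0.56), and miR-182-5p, miR-183-5p, miR-183-3p and miR-194-5p were called lower there in addition.

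The guides of the chromosome 12 cluster had close neighbours in pattern. Over the 6 libraries, miR-660-5p (0.0854 log2 units), miR-27a-3p (0.0882) and miR-331-3p (0.0974) lay closest to miR-200c-3p, and miR-30e-3p (0.103), miR-23b-3p (0.105) and miR-148b-3p (0.109) closest to miR-141-3p. Their log2 fold changes ran from 0.88 to 0.92 and from 1.11 to 1.16. All 6 stayed above 0 but lost their calls with library size only, as miR-200c-3p and miR-141-3p did. The 6 were chosen by likeness in these same libraries, so their similar fold changes and the calls lost together follow from that choice. None of the 6 is a member or an arm of the epithelial list, and their control levels, from 99.1 to 1813 CPM, were all above those of miR-141-3p and miR-200c-3p.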

How the data were processed

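Small RNA was sequenced from 3 control and 3 RUNX1 samples of K562 cells. The authors made libraries from 1000 ng of total RNA with the TruSeq Small RNA kit, sequenced single reads on a HiSeq2000 and counted them on annotated small RNAs through the OASIS platform. Each sample has 1 deposited table of raw whole-number counts. The submitters' processing notes name CASAVA 1.8.2 and hg19, and the aligner, the counter and the handling of reads with several matches are not given in the sources used here. All 5 summary entries of each table were at 0. Groups and replicate numbers came from the labels. The letter in the library names differs between control and RUNX1 samples. Its meaning is not given, and a separate preparation of each group could not be told apart from the condition. RUNX1 replicates 1 and 2 carry the same number in their library names, and the sample titles were used.

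Counts were analysed in R 4.3.3 with edgeR 4.0.16 (filterByExpr with a minimum count of 10 and a minimum total of 15, TMM, glmQLFit and glmQLFTest, condition as the only term), fitted on all small RNAs and adjusted by Benjamini-Hochberg over the 947 tested. Standard errors were obtained by dividing the size of each log2 fold change by the square root of its F. Ratios and shares were compared by two-sided exact permutation tests in scipy 1.17.1, which cannot go below 0.1 here. The P-values measure the spread between 3 transductions of 1 line. Replicates differed by more than counting error (chi-square over degrees of freedom from 11.2 to 545), and the highest values involved RUNX1 replicate 3. On simulated data for RUNX1 against control (945 small RNAs tested), edgeR recovered 100% of 191 changed by 1.5 on the log2 scale and called 3.45% of the unchanged. The simulation gave all small RNAs the same dispersion, drew changes in both directions, and held no deviating library. It checks that the fit runs as meant and does not give the error rate of the calls in these data. Alternatives were DESeq2 1.42.0, RLE factors, library size only, microRNAs only, other count filters, other thresholds, other denominators, a replicate block and each replicate left out. The members, the lists and the rule for named microRNAs (all members, miR-200c-5p, up to 4 called arms of the epithelial list with the largest change, and the 3 nearest microRNAs in pattern for miR-205-5p, miR-200c-3p and miR-141-3p) were chosen with earlier results of these data known. miR-10a-5p and the other named arms of the epithelial and tissue lists were added as exceptions beside a count or a denominator. miR-145-3p and miR-199b-5p, which no list held, were added after their values were seen.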

Additional observations from a re-analysis of the deposited data

How the results depend on the processing

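The calls of miR-205-5p, miR-141-3p and miR-200c-3p held under DESeq2, RLE factors, microRNAs only and the replicate block, and with each replicate left out. With library size only, 1 member was called higher (miR-205-5p) and 2 lower (miR-200b-3p and miR-141-5p), and with microRNAs only 1 was called lower (miR-200b-3p) while 339 small RNAs were called in all, of fewer tested. The cause of the change with library size was not tested. With no count filter 761 small RNAs and 6 members were called, the added members being miR-200a-3p, miR-429 and miR-205-3p. Of these miR-429 and miR-205-3p passed only by the unadjusted P-value (edgeR adjusted P = 0.108 and 0.152), miR-205-3p on 6 counts in all. At least 10 counts in every sample left miR-205-5p untested, and a threshold of 1 in log2 fold change left 2 members called. The difference in the miR-200 share of -7.25 turned to 2.19 CPM with all small RNA counts as the denominator and to 23.6 with miR-10a-5p left out of the denominator.

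Leaving out each replicate in turn gave 3 to 4 members higher, 0 to 1 lower (miR-200b-3p, without RUNX1 replicate 2) and 521 to 612 small RNAs called. The added higher member was miR-200a-3p, called without control replicate 1, 2 or 3 and without RUNX1 replicate 1. The log2 fold changes ranged from 6.02 to 6.42 for miR-205-5p, 1.06 to 1.32 for miR-141-3p, 0.93 to 1.17 for miR-200c-3p, -0.53 to -0.19 for miR-200b-3p and -0.58 to -0.13 for miR-141-5p. The differences in log2 ratio kept their signs, at 1.36 to 1.94 (miR-141-3p to miR-141-5p), -2.22 to -1.55 (miR-200b-3p to miR-200a-3p), -1.49 to -1.32 (miR-200b-3p to miR-200c-3p) and 4.75 to 5.998 (miR-205-5p to miR-141-3p).

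Samples with the same replicate number did not deviate together (correlations of 0.0437, -0.0451 and 0.0895 over 654 small RNAs). No shared effect by number was thus seen, but this cannot tell whether such samples were handled together. With the replicate block 546 small RNAs and the same 3 members were called, with log2 fold changes of 6.16, 1.18 and 0.96 for miR-205-5p, miR-141-3p and miR-200c-3p. Depth limits the arms with few counts, above all in control replicate 1. The scalings of the sums, lists and neighbouring microRNAs were added after the values were seen.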
